A study of Mus musculus with 10 samples.

Results

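The MHC class II genes of the ileal epithelium were described here through 7 rows of a raw count table of 13932 genes, chosen by symbol and not by their values: H2-Ab1, H2-Aa, H2-Eb1, H2-DMa, H2-DMb1, Cd74 and Ciita. All 7 passed the filter on low counts, with 12477 genes tested in all. The RNA came from epithelial cells of mouse ileum, sorted as live, CD45-, EpCAM+. The dIEC group was 5 mice labelled H2-Ab1 fl/fl; Villin:Cre+, of which 2 were female (mice 7 and 9) and 3 male (mice 1, 3 and 5). The WT group was 5 mice labelled H2-Ab1 fl/fl; Villin:Cre-, of which 2 were female (mice 8 and 10) and 3 male (mice 2, 4 and 6). Both groups thus carried the floxed allele, and no mouse had an unmodified H2-Ab1 gene. The series text gives Villin:Cre- for both genotypes, and the sample labels were followed. The villin promoter drives Cre in intestinal epithelium, and since every dIEC mouse and no WT mouse carried it, the effect of the deletion and the effect of Cre cannot be told apart. The sources used here give no ages.

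MHC class II molecules are pairs of an alpha and a beta chain that carry peptides from the endosomes to the cell surface, where CD4+ T cells read them. The invariant chain holds the peptide groove until it is degraded, and the DM heterodimer then exchanges its last fragment for a peptide. Professional antigen-presenting cells make these genes at all times. Intestinal epithelium also makes them, most of all under interferon gamma, which switches on Ciita through its receptor and IRF1. CIITA binds no DNA itself. It docks on the RFX, CREB and NF-Y complexes that sit on the X and Y boxes of class II promoters, which are a fixed distance apart.

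The X and Y boxes are shown first because they are what these genes are known to share. Promoter windows of 300 bases around RefSeq gene starts (GRCm38.p6) were matched by symbol for 4 of the 7 genes, H2-Aa, H2-Eb1, H2-DMa and H2-DMb1. A script searched both strands for GNAAC, letters found in X boxes, followed by TGATTGG, which holds the inverted CCAAT of the Y box, at 28 to 34 bases from start to start. The letters and the spacing were taken from these windows after they had been seen, so that the matches are a display and nothing can be read from how rare they are. H2-Aa, H2-Eb1 and H2-DMb1 each held the pair once on the strand of the gene. For the class II genes the other strand was searched only where the gene's strand held no pair, so it was not counted in these windows. The capitals below mark the 2 boxes, 5′ to 3′ along the gene. The H2-Aa stretch lies at chr17:34287859-34287914 on the minus strand, that of H2-Eb1 at chr17:34305766-34305820 on the plus strand and that of H2-DMb1 at chr17:34153087-34153142 on the plus strand. For H2-DMb1 the first box begins at -94 from the RefSeq start. The gene as annotated by GENCODE M21 begins at 34153072, so by that start the stretch lies inside the gene.
H2-Aa: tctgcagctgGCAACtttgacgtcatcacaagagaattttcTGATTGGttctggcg
H2-Eb1: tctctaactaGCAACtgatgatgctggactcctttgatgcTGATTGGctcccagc
H2-DMb1: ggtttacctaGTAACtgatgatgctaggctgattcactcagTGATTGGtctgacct
The boxes began 31 bases apart in H2-Aa and H2-DMb1 and 30 apart in H2-Eb1. The pair occurred in 0.231% of all 32851 windows of the table, GNAAC alone in 84.9% and TGATTGG alone in 7.82%. Neither of the 2 windows of H2-DMa held the pair. A match of letters is a description of these windows and no measurement of binding.

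Totals ran from 9174101 to 13484363 counts per library, and 1 count was worth 0.0613 to 0.12 CPM (a gene's share of the library's counts on a common scale, with TMM factors). The sort was visible in the epithelial marker Epcam, at 2038 ± 358 CPM in dIEC and 1775 ± 227 CPM in WT, while Ptprc, which encodes CD45, was at 0.44 ± 0.304 CPM in dIEC and 0.537 ± 0.17 CPM in WT (SD, n = 5 each). Each library came from its own mouse, per the series text. In bulk RNA, fewer cells of a type and less RNA per cell cannot be told apart.

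H2-Ab1, the beta chain of the I-A molecule, is the floxed gene (ENSMUSG00000073421; GRCm38 chromosome 17, 34257689 to 34269419, plus strand). Its level was 1.84 and 3.01 CPM in dIEC females 7 and 9 and 1.99, 3.11 and 0.767 CPM in dIEC males 1, 3 and 5, against 62.9 and 129.8 CPM in WT females 8 and 10 and 368, 246 and 235 CPM in WT males 2, 4 and 6. Every dIEC library lay far below every WT library, and the WT males lay above the WT females. CPM that did not overlap between the genotypes, by whatever margin, was found in 39 of 12477 genes (0.313%), in either direction. The fitted log2 fold change in dIEC was -6.39 (SE 0.51), with an adjusted p = 0.000904 in edgeR's quasi-likelihood test. It was the 1 of the 7 class II genes that passed, where 0.016% of all tested genes did, and likewise in DESeq2, where 0.0321% did. The dIEC libraries still held 9 to 49 counts of H2-Ab1. The table gives counts per gene, so whether these lay in the deleted part of the gene was not tested.

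H2-Ab1 was also set against its partner chain. Per 100 counts of H2-Aa there were 0.187 and 0.608 counts of H2-Ab1 in dIEC females 7 and 9 and 2.64, 2.175 and 4.69 in dIEC males 1, 3 and 5. The corresponding figures were 542 and 515 in WT females 8 and 10 and 256.5, 629 and 449 in WT males 2, 4 and 6. Among the dIEC libraries, male 5 was lowest in CPM for both chains and female 9 second highest for both, while female 7, the highest for H2-Aa, was second lowest for H2-Ab1. In WT both chains were highest in male 2 and lowest in female 8, and H2-Ab1 spanned 5.86-fold and H2-Aa 12.4-fold.

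The other 6 genes showed no such loss. H2-Aa encodes the alpha chain that pairs with the H2-Ab1 product, and its gene lies 13.3 kb from H2-Ab1 (chromosome 17, 34282744 to 34287823, minus strand). It stood at 985 and 495 CPM in dIEC females 7 and 9 and at 75.3, 143 and 16.4 CPM in dIEC males 1, 3 and 5, against 11.6 and 25.2 CPM in WT females 8 and 10 and 144, 39.1 and 52.3 CPM in WT males 2, 4 and 6. The 2 dIEC females were above all other libraries, while the dIEC males and the WT libraries overlapped. The mean was 343 ± 404 CPM in dIEC and 54.4 ± 52.1 CPM in WT (SD, n = 5 each), and the log2 fold change of 1.82 (SE 1.21) did not pass in edgeR.

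H2-Eb1 encodes the beta chain of the I-E molecule (chromosome 17, 34305867 to 34316674, plus strand). Its values were 638 and 326 CPM in dIEC females 7 and 9 and 62.5, 124 and 16.02 CPM in dIEC males 1, 3 and 5, against 14.9 and 32.9 CPM in WT females 8 and 10 and 129, 51.3 and 53.9 CPM in WT males 2, 4 and 6. The pattern was that of H2-Aa, with both dIEC females on top. Its log2 fold change was 1.42 (SE 1.02). Antisense gene Gm20513 overlaps it on the other strand, and no source used here says whether the counting used strand.

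Cd74, the invariant chain (chromosome 18, 60803848 to 60812652, plus strand), was the most abundant of the 7 per kb of exon in each library. It reached 2800.0 and 1329.9 CPM in dIEC females 7 and 9 and 362, 656 and 75.8 CPM in dIEC males 1, 3 and 5, against 48.8 and 87.1 CPM in WT females 8 and 10 and 720 CPM, 207 CPM and 263 CPM in WT males 2, 4 and 6. Again the dIEC females stood above the other 8 libraries, and the WT females below the WT males. Its fitted log2 fold change was 1.63 (SE 1.15).

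The genes of the DM heterodimer, H2-DMa (chromosome 17, 34119541 to 34139101, plus strand) and H2-DMb1 (chromosome 17, 34153072 to 34160230, plus strand), had the dIEC females on top as well. H2-DMa was at 77.4 and 60.0 CPM in dIEC females 7 and 9 and at 13.2, 24.9 and 8.35 CPM in dIEC males 1, 3 and 5, against 12.7 and 11.7 CPM in WT females 8 and 10 and 33.5, 14.4 and 16.04 CPM in WT males 2, 4 and 6. H2-DMb1 was at 94.6 and 58.6 CPM in dIEC females 7 and 9 and at 16.2, 23.4 and 3.15 CPM in dIEC males 1, 3 and 5, against 3.42 and 5.56 CPM in WT females 8 and 10 and 23.7, 8.90 and 10.6 CPM in WT males 2, 4 and 6. For both genes dIEC male 5 was the lowest of the 10 libraries. The log2 fold changes were 0.68 (SE 0.60) and 1.49 (SE 0.89). H2-DMa overlaps Brd2 on the other strand, and H2-DMb1 has a near-identical copy, H2-DMb2, which was not analysed here, so reads of both DM genes are uncertain.

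Ciita, the transactivator itself (chromosome 16, 10480059 to 10528418, plus strand), was also highest in the dIEC females. Its level was 156 and 85.8 CPM in dIEC females 7 and 9 and 27.2, 37.2 and 13.55 CPM in dIEC males 1, 3 and 5, against 5.84 and 17.8 CPM in WT females 8 and 10 and 54.3, 17.9 and 15.6 CPM in WT males 2, 4 and 6. The log2 fold change was 1.16 (SE 0.78). Dexi overlaps Ciita on the other strand. None of these 6 genes passed for dIEC against WT (edgeR adjusted p = 1 for each, unadjusted p from 0.123 to 0.277), and none passed in DESeq2 either. The median of the 7 fitted log2 fold changes was 1.42, and that of all tested genes 0.013.

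**Figure D1:**
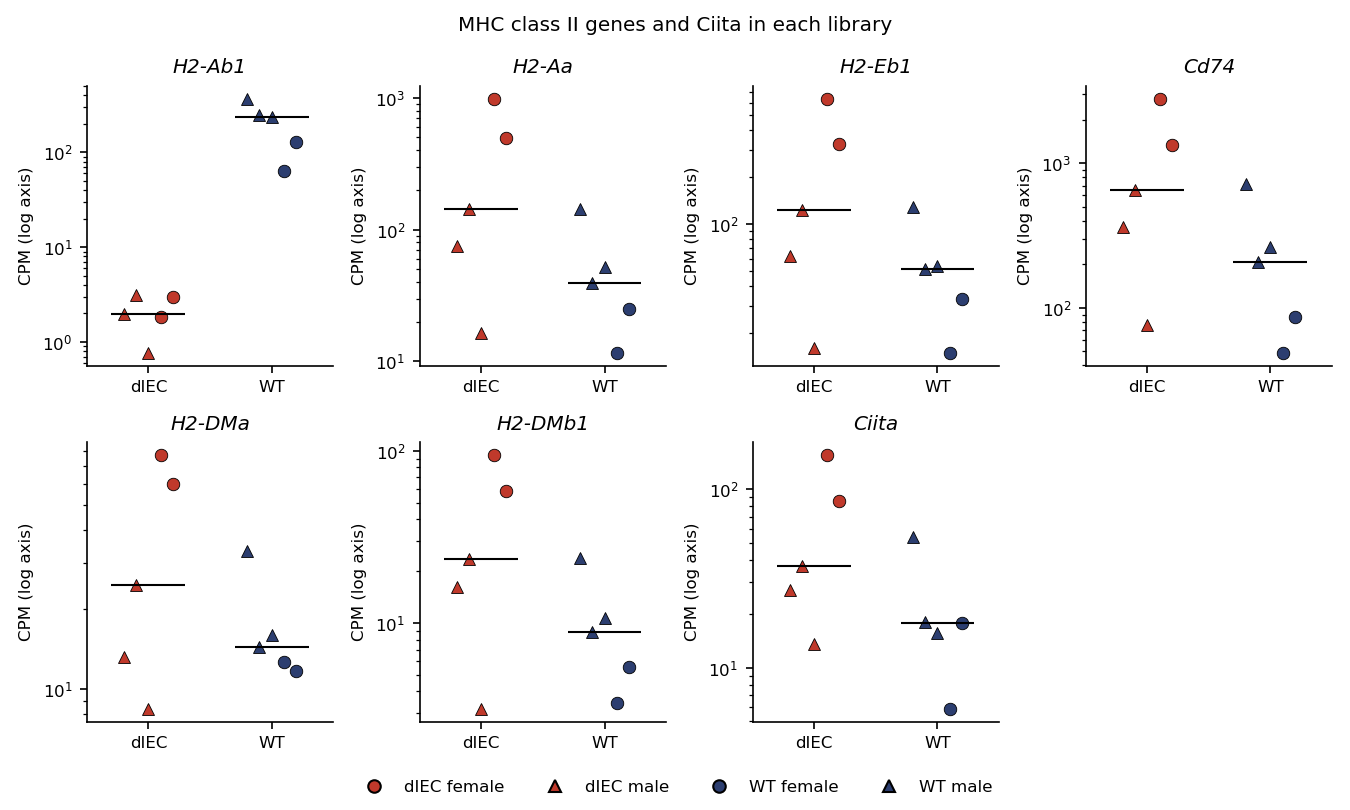
CPM of the 7 genes in each library on log axes, with dIEC left of WT, circles for females, triangles for males and a bar at the median of 5. H2-Ab1 separates the genotypes without overlap, while for the other 6 genes the 2 dIEC females lie on top and the remaining libraries overlap.

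The dIEC females were the highest 2 of the 10 libraries for 6 of the 7 genes, all but H2-Ab1, a position that 65 of 12477 tested genes shared (0.521%). The WT females were the lowest 2 for 0 of the 7, as for 2.62% of tested genes. The genotypes were then compared within each sex, with 2 mice of each genotype among females and 3 among males. In females the fitted log2 fold change of dIEC over WT was 5.33 for H2-Aa (SE 1.08), 4.93 for Cd74 (SE 1.05), 4.33 for H2-Eb1 (SE 0.94) and 4.09 for H2-DMb1 (SE 0.86). It was 3.36 for Ciita (SE 0.79) and 2.50 for H2-DMa (SE 0.54). As ratios of mean CPM these ran from 5.65-fold for H2-DMa to 40.2-fold for H2-Aa. For all 7 genes the 2 dIEC females and the 2 WT females did not overlap, as for 17.8% of all tested genes. edgeR and DESeq2 differed in their calls. In edgeR, H2-Ab1 was the 1 of 7 that passed in females (log2 fold change -5.27, SE 0.61, adjusted p = 0.0373), with 0.0401% of all genes called, and the adjusted p of the other 6 ran from 0.441 to 0.522. That call was lost when any library other than dIEC male 5 was left out, with adjusted p from 0.0765 without dIEC male 3 to 0.244 without WT female 10. DESeq2 called all 7 genes in females, with adjusted p from 3.79e-16 for H2-Ab1 to 0.00221 for H2-DMa, and 0.569% of all genes.

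The males gave values near 0 for the same genes. The log2 fold changes of dIEC over WT males were -0.0033 for H2-Aa (SE 0.74), -0.12 for Cd74 (SE 0.73), -0.21 for H2-Eb1 (SE 0.67), -0.020 for H2-DMb1 (SE 0.63), -0.17 for Ciita (SE 0.59) and -0.46 for H2-DMa (SE 0.42). Their SE leaves room for changes of either sign, and the sign of each changed when single males were left out. H2-Ab1 was lower in dIEC males (log2 fold change -7.17, SE 0.55, edgeR adjusted p = 0.00358), the 1 of 7 genes called where 0.016% of all genes were. Without dIEC male 1 its adjusted p was 0.0544.

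The difference between the sexes in the genotype effect was tested as an interaction. It was positive for all 7 genes, from 1.90 (SE 0.72) for H2-Ab1 to 5.33 (SE 1.25) for H2-Aa on the log2 scale. In edgeR 0 of 7 passed (unadjusted p from 0.00177 to 0.027, adjusted p = 1 for each, with 0.00801% of all genes called and 262 at an unadjusted p under 0.05), whereas DESeq2 called 5 of 7 (0.144% of all genes called), with H2-Ab1 and Ciita not passing. In levels, dIEC females had 4.44 to 9.46 times the mean CPM of dIEC males for the 6 genes, and WT females 0.171 to 0.57 times that of WT males. Averaged over genotype, none of the 7 differed between females and males in edgeR or DESeq2 (0.0401% and 0.104% of all genes called, edgeR unadjusted p from 0.124 to 0.684).

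**Figure D2:**
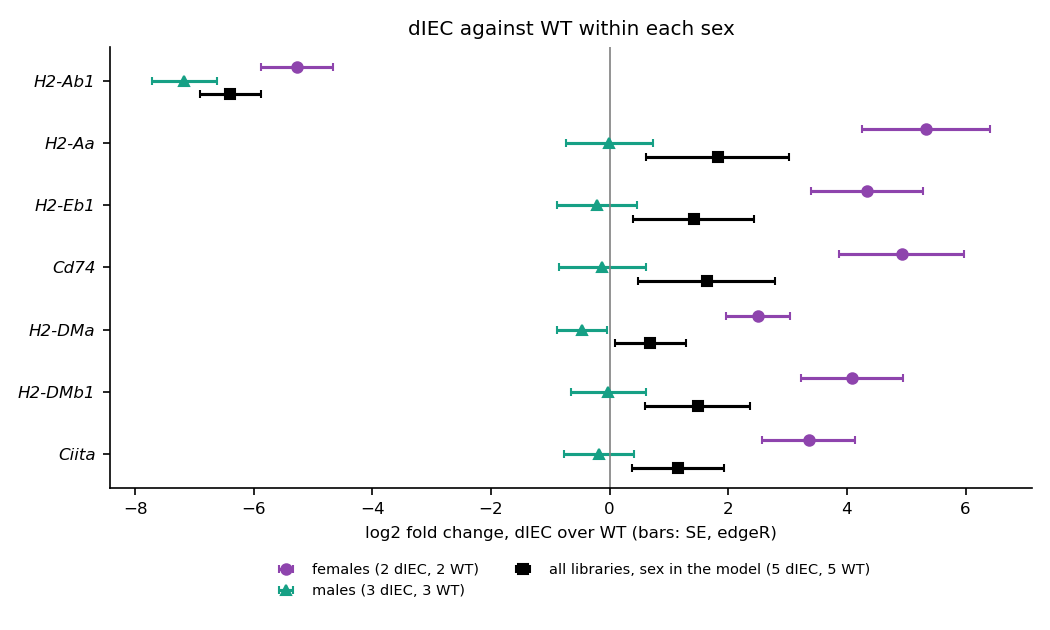
Fitted log2 fold change of dIEC over WT for each gene, with SE bars from edgeR, in females (circles), in males (triangles) and over all libraries with sex in the model (squares). H2-Ab1 lies near -5 to -7 throughout, and the other 6 genes lie between 2.50 and 5.33 in females and between -0.46 and -0.0033 in males.

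Levels of different genes can be compared only per length, here per kb of all exons annotated by GENCODE M21. In dIEC the mean was 622 ± 647 CPM per kb for Cd74, 119.9 ± 131 for H2-Eb1, 90.3 ± 106 for H2-Aa, 23.3 ± 22.1 for H2-DMb1, 10.7 ± 8.81 for H2-DMa, 6.70 ± 6.09 for Ciita and 0.834 ± 0.374 for H2-Ab1 (SD, n = 5). In WT it was 158 ± 160 CPM per kb for Cd74, 81.1 ± 45.7 for H2-Ab1, 29.0 ± 22.4 for H2-Eb1, 14.3 ± 13.7 for H2-Aa, 6.21 ± 4.71 for H2-DMb1, 5.12 ± 2.61 for H2-DMa and 2.34 ± 1.95 for Ciita (SD, n = 5). The 2 orders were the same but for H2-Ab1, last in dIEC and second in WT. Neighbours in these orders overlapped within 1 SD between mice. Within single libraries, Cd74, H2-Eb1 and H2-Aa took the first 3 places in that order in all 5 dIEC mice, and Cd74, H2-Ab1 and H2-Eb1 did so in all 5 WT mice. Exon length over all isoforms can exceed that of the transcripts in use, which lowers these values.

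The 6 genes moved together but by unequal amounts. From the lowest to the highest of the 10 libraries H2-Aa spanned 84.9-fold, Cd74 57.4-fold, H2-Eb1 42.7-fold, H2-DMb1 30-fold, Ciita 26.7-fold and H2-DMa 9.26-fold. The ratio of H2-Aa to H2-Eb1 counts was 1.54 and 1.52 in dIEC females 7 and 9 and 1.21, 1.16 and 1.02 in dIEC males 1, 3 and 5, against 0.777 and 0.766 in WT females 8 and 10 and 1.11, 0.763 and 0.971 in WT males 2, 4 and 6. The groups overlapped only through dIEC male 5, which lay below WT male 2. In log2 the mean was 0.35 ± 0.26 in dIEC and -0.21 ± 0.25 in WT (SD, n = 5 each), with a two-sided exact permutation p = 0.0159 and an adjusted p = 0.0556 over the 7 ratios tested.

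The ratio of H2-DMa to H2-DMb1 ran the other way. It was 0.818 and 1.02 in dIEC females 7 and 9 and 0.813, 1.06 and 2.65 in dIEC males 1, 3 and 5, against 3.71 and 2.10 in WT females 8 and 10 and 1.41, 1.62 and 1.51 in WT males 2, 4 and 6. All dIEC libraries except male 5 lay below all WT libraries (exact permutation p = 0.103, n = 5 each, adjusted p = 0.181). Of the 7 ratios, 0 passed after adjustment, H2-Ab1 over H2-Aa included (exact p = 0.00794, the smallest that all assignments of these libraries can give, n = 5 each, adjusted p = 0.0556). At that smallest p a single ratio gets an adjusted p of 0.0556 over 7 ratios, so it could not pass by itself however far apart the genotypes lay. Without dIEC male 5, in which each of the 6 genes was at its lowest or second lowest, 5 of the 7 passed (exact permutation test on 4 dIEC and 5 WT libraries, adjusted p from 0.0278 to 0.0444). Those 5 were H2-Ab1 over H2-Aa, H2-Aa over H2-Eb1, H2-Aa over H2-DMa, H2-Aa over Ciita and H2-DMa over H2-DMb1. When each library was left out in turn, each of these 5 passed in this setting alone. In H2-Aa over H2-Eb1 and H2-DMa over H2-DMb1 dIEC male 5 alone made the genotypes overlap, so leaving it out favours a pass. Whether these ratios follow genotype or the class II level was not tested.

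The ratio of H2-Aa to Cd74 did not overlap between the sexes. It was 0.352 and 0.372 in dIEC females 7 and 9 and 0.208, 0.218 and 0.216 in dIEC males 1, 3 and 5, against 0.238 and 0.289 in WT females 8 and 10 and 0.199, 0.189 and 0.199 in WT males 2, 4 and 6. The 4 females lay above the 6 males although the dIEC and WT females were at opposite ends of the class II levels. This was noticed in the values and was not tested. For genotype the exact permutation p was 0.246 (n = 5 each).

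**Figure D3:**
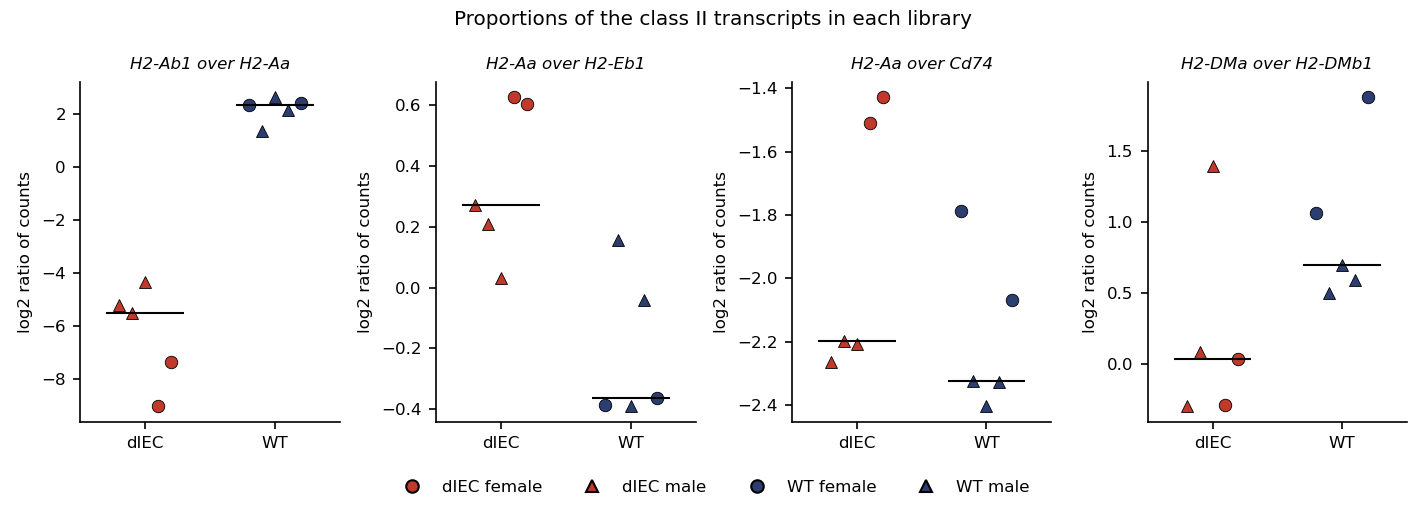
Log2 ratios of counts between pairs of class II genes in each library, with dIEC left of WT, circles for females, triangles for males and a bar at the median of 5. H2-Ab1 over H2-Aa separates the genotypes, H2-Aa over Cd74 is higher in the 4 females than in the 6 males, and dIEC male 5 stands apart from the other dIEC libraries in H2-DMa over H2-DMb1.

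The level of Ciita was set against those of 12 genes across the 10 libraries. It was correlated with all 5 class II partners, with Pearson r of 0.97 for H2-Aa, 0.97 for H2-Eb1, 0.96 for Cd74, 0.95 for H2-DMb1 and 0.91 for H2-DMa (n = 10; permutation p from 1e-05, the smallest 100000 resamples can give, to 0.00034; adjusted p from 6e-05 to 0.00068 over the 12 relations). Spearman's rho was 0.96 for H2-Aa, H2-Eb1 and Cd74, 0.95 for H2-DMb1 and 0.87 for H2-DMa (permutation p from 4e-05 to 0.00197). The farthest libraries from the median of Ciita were the 2 dIEC females, and without them r was 0.93 for H2-Aa, 0.91 for H2-Eb1, 0.91 for Cd74, 0.88 for H2-DMb1 and 0.74 for H2-DMa (n = 8, permutation p from 0.00042 to 0.0364; the adjusted p of H2-DMa was then 0.0624). Within the 6 males r lay between 0.87 and 0.91 for the 5 genes (exact permutation p from 0.0153 to 0.0236, adjusted p = 0.0405 for each). On the axis of Ciita the libraries formed no separate clusters, the largest gap being 25.4% of the range. H2-Ab1, the floxed gene, was not set against Ciita over both genotypes.

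Irf1, a transcription factor induced by interferon gamma, had r = 0.81 with Ciita (rho 0.78, n = 10, permutation p = 0.00386, adjusted p = 0.00579), with an adjusted p = 0.0765 without the 2 dIEC females and 0.0542 in the 6 males. The receptor chain Ifngr1 and the kinase Jak2 showed no such relation, with r of -0.18 and 0.036 (n = 10, permutation p of 0.6205 and 0.92). Socs1, a feedback inhibitor of the pathway, had r = 0.62 (n = 10, permutation p = 0.0555), and Rfx5, the DNA-binding RFX subunit, r = 0.70 (adjusted p = 0.035; n = 10, permutation test), which was 0.56 without the 2 dIEC females (adjusted p = 0.19). Nlrc5, the counterpart of Ciita for MHC class I genes, followed Ciita at r = 0.93 in all 10 libraries (adjusted p = 0.00053, permutation test), 0.93 without the 2 dIEC females and 0.93 in the 6 males.

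**Figure D4:**
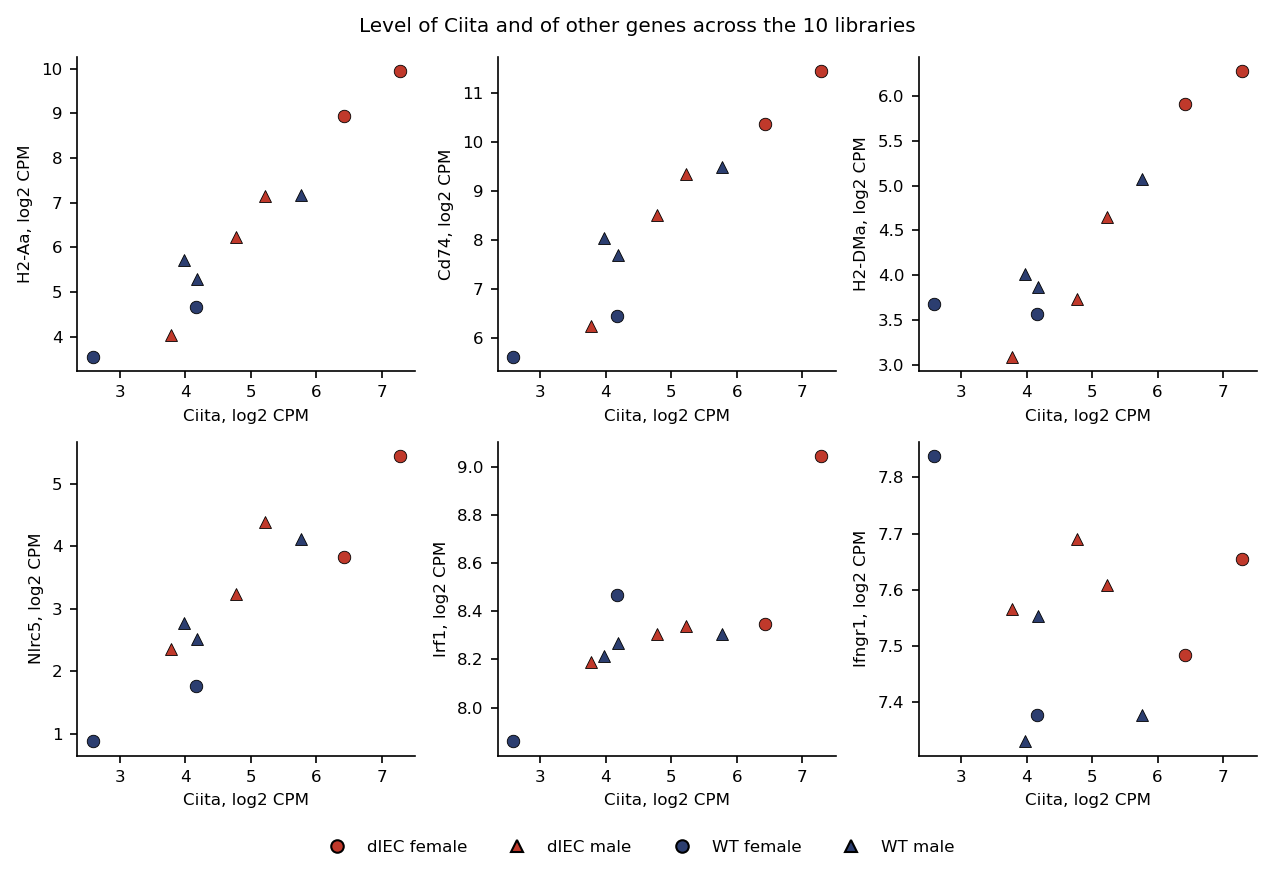
Log2 CPM of Ciita (x axis) against log2 CPM of H2-Aa, Cd74, H2-DMa, Nlrc5, Irf1 and Ifngr1 (y axes) in the 10 libraries, red for dIEC, blue for WT, circles for females and triangles for males. The first 4 genes rise with Ciita in both genotypes. Irf1 also rises, over a narrower range, from 7.86 in WT female 8 to 9.045 in dIEC female 7, and Ifngr1 shows no such rise.

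Genes whose pattern was most like the mean of the 6 class II genes (H2-Ab1 left out) were looked for among 12213 other genes with a mean of at least 1 CPM, by Pearson r of log2 CPM over the 10 libraries. The nearest was Mir5107 (r = 0.98), whose annotated position lies inside Cd74 on the same strand, so that its counts cannot be told apart from reads of Cd74. Next came H2-Q6, a nonclassical MHC class I chain (0.94), Mtus2 (0.93), Efhb (0.93) and the ubiquitin-like modifier gene Ubd (0.93). Nlrc5 had r = 0.925 and Tap1, a subunit of the peptide transporter of the class I pathway, 0.91, and the last 3 of the 10 were the snoRNA Gm22620, Slfn2 and Gm12250, at 0.902 to 0.905. Within the 6 males r of these 10 genes ranged from 0.67 to 0.97. Ubd was at 17.3 CPM on average in dIEC females against 0.256 CPM in WT females, while it was at 3.65 CPM in dIEC males against 3.59 CPM in WT males. H2-Q6 was at 13.4 CPM in dIEC females against 0.9996 CPM in WT females, while it was at 4.01 CPM in dIEC males against 3.38 CPM in WT males. Both were highest in dIEC females and lowest in WT females, as H2-Aa was, which follows from their having been picked by likeness over these same libraries. The class I chains have near-identical copies, and H2-Q6 is uncertain for that reason.

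In the rest of the class II machinery, the genes that were tested gave no calls in edgeR or DESeq2 for dIEC against WT. Other class II chains and chaperones, such as H2-Oa and H2-Ob, were not analysed. Of all 12477 tested genes, 355 had an unadjusted p under 0.05 in edgeR, and 6564 were higher and 5913 lower. Of the 7 promoter factors 0 were called and 0 had an unadjusted p under 0.05 (5 higher and 2 lower, median log2 fold change 0.052, against 0.013 for all tested genes). Rfx5 was at 12.9 ± 2.26 CPM in dIEC and 10.7 ± 1.70 CPM in WT, Rfxap, another RFX subunit, at 9.10 ± 1.01 CPM in dIEC and 8.04 ± 1.44 CPM in WT (SD, n = 5 each). The NF-Y subunit Nfya had a fitted log2 change of 0.079 (SE 0.14), and Creb1 one of 0.052 (SE 0.12). Of 9 genes of endosomal antigen processing 0 were called and 0 had an unadjusted p under 0.05 (3 higher and 6 lower, median -0.093). Ifi30, the thiol reductase that unfolds antigens, was at 110.2 ± 13.4 CPM in dIEC and 130.3 ± 5.62 CPM in WT, and the protease Ctss, which cuts the invariant chain, at 136 ± 22.4 CPM in dIEC and 120.4 ± 19.8 CPM in WT (SD, n = 5 each). The fitted log2 fold change was 0.36 for the protease Lgmn (SE 0.20) and -0.28 for the protease inhibitor Cst3 (SE 0.20).

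Costimulatory ligands and class II turnover were represented by 4 tested genes, and other listed genes such as Cd80 and Cd86 were not analysed. Of the 4, 0 were called and 1 (Cd274) had an unadjusted p under 0.05 in edgeR, as had 355 of all 12477 genes. Cd274, the ligand PD-L1, was at 7.55 ± 5.55 CPM in dIEC and 2.32 ± 1.38 CPM in WT (SD, n = 5 each; log2 fold change 1.66, SE 0.57). It was at 10.4 CPM on average in dIEC females against 1.82 CPM in WT females, while it was at 5.63 CPM in dIEC males against 2.66 CPM in WT males. Icosl, the ligand of ICOS, had a log2 fold change of 0.25 (SE 0.19), Cd83 0.19 (SE 0.38) and March8, a ubiquitin ligase of surface proteins, -0.0015 (SE 0.17). Of 9 interferon gamma signalling genes 0 were called and 0 had an unadjusted p under 0.05 (8 higher and 1 lower, median 0.15), with Irf1 at 357 ± 96.4 CPM in dIEC and 301.5 ± 44.4 CPM in WT (SD, n = 5 each). Usf1, a factor at one of the Ciita promoters, had a fitted log2 change of 0.15 (SE 0.11) and Socs1 of 0.30 (SE 0.31).

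Interferon gamma response genes had a positive median in females and one near 0 in males, a difference not tested for the list. Of 19 tested, 18 had a positive and 1 a negative log2 fold change in dIEC (median 0.68), against 6564 and 5913 of all tested genes. In edgeR or DESeq2 0 were called, and 3 had an unadjusted p under 0.05 in edgeR (355 of all 12477 genes). The median was 2.25 in females and -0.0465 in males, against 0.042 and -0.010 for all tested genes. In females 0 of the 19 passed in edgeR (0.0401% of all tested genes did), with 15 at an unadjusted p under 0.05 (508 of all 12477 genes). In DESeq2 5 of the 19 passed, where 0.569% of all tested genes did. The guanylate-binding protein gene Gbp6 had a log2 fold change of 1.66 (SE 0.58), Gbp7 of 1.22 (SE 0.50) and Gbp8 of 1.60 (SE 0.52), genes of a family with near-identical copies. The chemokine gene Cxcl11 had a log2 fold change of 0.44 (SE 0.21).

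The interferon gamma response list ranked the libraries much as the class II genes did. Apart from dIEC female 7, the proliferation list had the same 5 libraries highest as class II, but not in the same order. The mature enterocyte list did not rank the libraries as class II did. The mean log2 CPM of 25 proliferation genes was lowest in dIEC female 7 (3) and highest in dIEC female 9 (5.64), with 3.34 to 5.23 in the other 8 libraries. The mean log2 CPM of 19 mature enterocyte genes was highest in dIEC female 7 (11.3) and lowest in dIEC female 9 (10.1). These 2 libraries, at opposite ends of both lists, were the highest 2 for class II, with a mean log2 CPM of the 6 genes of 8.47 and 7.65 against 3.53 to 6.515 in the other libraries. Apart from dIEC female 7, the libraries highest for proliferation were also highest for class II. They were dIEC female 9, WT males 6 and 2 and dIEC males 3 and 1. These had 4.70 to 5.64 for proliferation and 5.16 to 7.65 for class II, against at most 4.60 and 4.98 in the rest. Among the rest the orders differed, with WT female 8 highest for proliferation (4.60) and lowest for class II (3.53). How far class II follows either list was not tested. For interferon gamma response genes dIEC female 7 was highest (4.07) and dIEC female 9, at 3.31, lay beside WT male 2, at 3.33. These 3 libraries and dIEC males 1 and 3 were the highest 5 for the response genes and for the 6 class II genes, and WT female 8 was the lowest for both. The 9 signalling genes spanned 6.36 to 7.12 in dIEC and 6.30 to 6.73 in WT, with dIEC female 7 highest and dIEC female 9 second lowest.

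**Figure D5:**
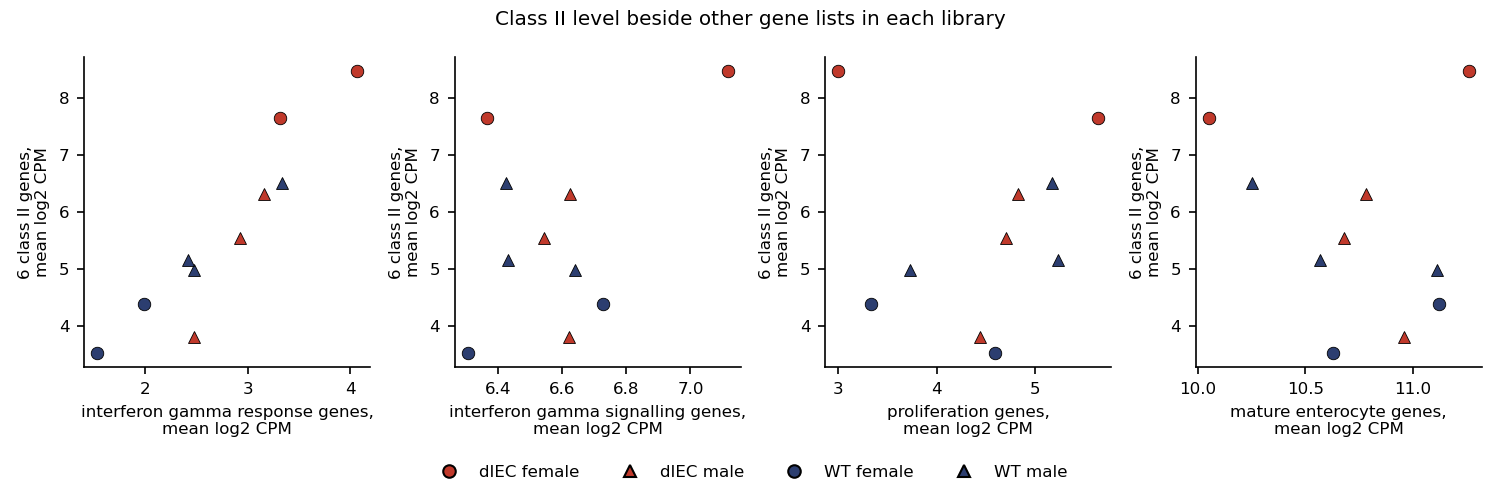
Mean log2 CPM of the 6 class II genes other than H2-Ab1 (y axis) against the mean log2 CPM of 4 other gene lists (x axes) in the 10 libraries, red for dIEC, blue for WT, circles for females and triangles for males. The 2 dIEC females are highest on the y axis and at opposite ends of the proliferation and enterocyte axes.

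Markers of cells other than epithelium were looked at next. Of 9 general leukocyte markers 2 were analysed, and their summed level was 2.30 to 10.7 CPM in dIEC and 3.41 to 7.31 CPM in WT, with dIEC female 7 lowest and dIEC female 9 highest. Of 10 B cell markers 1 was analysed, Cd79b, at 0 to 0.797 CPM in dIEC and 0 to 0.334 CPM in WT, with the highest value in dIEC female 9 and a count of 0 in dIEC female 7, dIEC male 1 and WT female 10. Of 19 dendritic cell and macrophage markers 6 were analysed. Among them Csf1r averaged 0.566 ± 0.402 CPM in dIEC and 0.324 ± 0.19 CPM in WT, and the dendritic cell factor Zbtb46 0.52 ± 0.452 CPM in dIEC and 0.407 ± 0.321 CPM in WT (SD, n = 5 each). Of 13 T cell and innate lymphoid markers 2 were analysed, among them the granzyme gene Gzma, at 0.984 ± 0.431 CPM in dIEC and 0.153 ± 0.173 CPM in WT (SD, n = 5 each), which was too low to be tested. Among 10 stromal and endothelial markers 4 were analysed, with sums of 9.54 to 15.1 CPM in dIEC and 7.98 to 13.3 CPM in WT. The part of such cells in the class II levels was not tested.

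The neighbours of H2-Ab1 on chromosome 17 gave no call. Within 500 kb on either side, 51 other genes were tested, 4 of them class II genes, and 0 were called in edgeR. Of these 51, 1 had an unadjusted p under 0.05, as had 355 of all 12477 tested genes. In dIEC 29 were higher and 22 lower (median log2 fold change 0.038, against 0.013 for all tested genes). The 47 that were not class II genes ran from -0.50 to 1.17, the upper end being the complement gene C4b (SE 0.575). Brd2, which overlaps H2-DMa, had a log2 fold change of 0.031 (SE 0.17). Tap1 and Psmb8, which act in the class I pathway and lie between H2-DMb1 and H2-Ab1, had 0.48 (SE 0.28) and 0.25 (SE 0.25), with 1.18 and 0.90 in females and 0.0097 and -0.19 in males.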

How the data were processed

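RNA from sorted ileal epithelial cells of 10 mice was sequenced, 5 per genotype. Per the labels' protocols, libraries were stranded and depleted of ribosomal RNA. The values deposited are raw gene counts from reads aligned to mm10 with Novoalign, per the submitters' processing notes. No source used here names the program that counted them, its strand setting or its annotation. Every listed gene reaches at least 10 counts in 1 library.

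Software was R (4.3.3), DESeq2 (1.42.0), limma (3.58.1) and edgeR (4.0.16). Low genes were removed by filterByExpr, leaving 12477 (89.6%), and scaling used TMM. The robust quasi-likelihood test of edgeR on sex plus genotype, on 4 groups, and with an interaction gave the comparisons, called at a Benjamini-Hochberg adjusted p under 0.05 over all tested genes. An SE was obtained by dividing the absolute log2 fold change by the root of its F statistic. Totals for CPM were TMM-scaled, with a prior count of 2 before taking log2. Ratios were tested on log2 counts after adding 0.5, with exact two-sided permutations. Correlation p-values are two-sided on the size of r. Fits were tested on simulated data. Pairs of libraries in a group differed by more than counting noise (ratio of chi-square to its degrees of freedom, 17 to 163). Exon lengths are from GENCODE M21 on GRCm38, promoters from RefSeq.

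Genes and lists were chosen with earlier results of these data known. Genes named outside the 7 were, for each class II list, up to 4 with the smallest p, and the 10 nearest by r; Tap1, Psmb8, C4b and Brd2 as neighbours, and marker genes, were chosen after their values were seen. Alternatives were other scalings, tools, filters and subsets, and leaving out each library. A few genes of these lists, and the summed levels of 2 marker lists, are not reported here.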

Additional observations from a re-analysis of the deposited data

Results flagged for a closer look

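Of 28 groups of 5 libraries examined (7 gene levels and 7 ratios in each genotype), a single library stood apart in 2, where chance gives about 1.4 at 1 in 20. Both were dIEC male 5. Its log2 ratio of Cd74 to Ciita was 2.48, lower than the 3.73 to 4.17 of the other dIEC libraries. Its log2 ratio of H2-DMa to H2-DMb1 was 1.39, higher than the -0.30 to 0.085 of the others. In both ratios this library lay within the range of WT.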

How the results depend on the processing

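No paired analysis was made, because the sample labels do not say whether dIEC and WT mice were paired. Of 753 recomputed values under other settings, 657 kept their direction and side of the threshold. For dIEC against WT, 2 genes were called, 4 by DESeq2 and 0 in females alone, where 0 class II genes passed, and leaving out single libraries gave 2 to 2. In males alone the log2 fold changes turned to -0.016 for H2-Aa, -0.22 for H2-Eb1, -0.475 for H2-DMa, -0.030 for H2-DMb1, -0.13 for Cd74 and -0.19 for Ciita. Without both dIEC females, a setting chosen after seeing the data, they were -0.0021, -0.21, -0.46, -0.019, -0.12 and -0.17 in the same order.

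In females, class II genes called numbered 1 in edgeR, 7 in DESeq2 and 0 with library size only, and in males 1, each 0 to 1 with single libraries left out. The interaction called 1 gene, 18 by DESeq2 (5 class II genes), 0 by limma voom, 0 with library size only and 0 to 1 with single libraries left out. Leaving out single libraries gave male log2 fold changes of -0.77 to 0.77 for H2-Aa, -0.99 to 0.36 for H2-Eb1, -0.99 to 0.022 for H2-DMa, -0.59 to 0.54 for H2-DMb1, -0.86 to 0.63 for Cd74 and -0.53 to 0.64 for Ciita, and female over male ones of -0.36 to 1.405 for Cd74. Ratios called numbered 0, or 0 to 5 with single libraries left out. In males alone Cd74 over Ciita was -0.33 and H2-Aa over Ciita -0.20. Ciita with Jak2 turned to -0.44 in 6 males, -0.24 without 2 libraries, -0.042 by rank and -0.013 with library size only. The cause of these shifts was not tested. With 2 females per genotype, the female values rest on 4 mice.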
